A study of Mus musculus with 20 samples.

Results

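The 9 genes described here are the core enzymes of methionine and one-carbon metabolism in the liver. They were taken by symbol from a table of 46095 gene symbols by a rule that names them and sets no threshold on their values: Mat1a, Gnmt, Pemt, Nnmt, Ahcy, Bhmt, Cbs, Cth and Shmt1. All 9 were found and all 9 passed the filter on low counts. The 9 and the wider list used below were chosen with earlier results of these data known. Shares over all genes given beside them are therefore a description and no test of the set. RNA from whole mouse liver was sequenced in 20 libraries, 1 per mouse, in 4 groups of 5. Wild-type (WT) mice and mice labelled Pck1-cKO, a liver-specific knockout of Pck1 (KO below), received either a chow diet or a NASH diet for 24 weeks and were 31 to 33 weeks old. Pck1 encodes the cytosolic phosphoenolpyruvate carboxykinase of gluconeogenesis, and NASH stands for nonalcoholic steatohepatitis, fatty liver with inflammation. The series asks what loss of Pck1 does to the liver transcriptome under each diet. The sources used here do not give the composition of the diets, the driver of the liver deletion or the strain. The labels number mice within each group, and nothing else links mice across groups.

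Methionine is activated in hepatocytes to S-adenosylmethionine, the methyl donor of the cell, by the enzyme that Mat1a encodes. Methyltransferases spend it: Gnmt methylates glycine and buffers the methyl supply, Pemt makes phosphatidylcholine from phosphatidylethanolamine, and Nnmt methylates nicotinamide. Each transfer leaves S-adenosylhomocysteine, which Ahcy splits into adenosine and homocysteine. Homocysteine then returns to methionine, with betaine as the methyl donor through Bhmt or with folate through methionine synthase, or leaves the cycle through Cbs and Cth, which make cystathionine and cysteine. Shmt1 moves a carbon from serine onto folate. The liver carries most of the body's methionine breakdown, and disturbance of this pathway is a known feature of fatty liver.

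In the libraries, Pck1 averaged 3573 ± 1139 CPM (SD, n = 5) in WT mice on chow and 2290 ± 511 on the NASH diet, against 626 ± 175 and 445 ± 112 CPM in KO mice, and no KO library reached any WT library. Pck1 counts thus remained in every KO library. CPM express a gene's count relative to the scaled total of its library. Library totals ran from 9958935 to 20601955 counts. Markers of hepatocytes had counts in every library (7 of the 8 chosen were in the table) and summed to 47623 to 126316 CPM. Counts of Y-linked genes showed that all 5 WT chow mice were male, against 1 of 5 in WT NASH (replicate 4), 3 of 5 in KO chow (replicates 1, 2 and 4) and 4 of 5 in KO NASH (all but replicate 2). The labels do not give sex. In WT mice, sex and diet therefore differ together except in 1 library. In addition, 6 libraries stood apart in how counts depended on gene length: KO chow replicates 4 and 5, WT NASH replicate 4, and replicates 3 to 5 of WT chow. Their slope of log2 CPM on log2 gene length, taken relative to the mean of all libraries, was -0.34 to -0.25, against 0.0096 to 0.19 in the other 14. No KO NASH library was among the 6. These 6 are called short-gene-rich libraries below. Without them, WT chow keeps only replicates 1 and 2, both male, and WT NASH only replicates 1, 2, 3 and 5, all female. In such fits sex and diet in WT cannot be told apart, and sex also differs between the genotypes on the NASH diet. Leaving out WT NASH replicate 4 alone likewise leaves male WT chow and female WT NASH. The enzymes whose values moved with these 6 libraries or with sex are given below also from fits without those libraries or with a term for sex. Red blood cell markers summed to 24.6 to 184 CPM in WT chow and 54.9 to 144 in KO chow, against 17.1 to 28.8 in WT NASH. In KO NASH the sums began at 12.3 and all lay under every KO chow library. Adipocyte markers summed to 211 to 1134 CPM in WT mice on chow and 1057 to 2816 on the NASH diet. In KO mice the sums were 125 to 350 CPM on chow and 241 to 2055 on the NASH diet. Of the 5 adipocyte markers (Adipoq, Lep, Retn, Cfd and Car3) only 1 had counts in every library, and Lep was at 0 in every library. Which of the 5 carried the sums was not tested. The part of both marker lists in the results was not tested. Fewer hepatocytes and less RNA per hepatocyte cannot be told apart in whole tissue.

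Per length of transcript the 9 genes spanned a wide range. In RPKM, which is CPM divided by exon length in kilobases, and averaged over the 20 libraries, Mat1a was highest at 1976, followed by Gnmt at 1113, Bhmt at 465, Cth at 319, Nnmt at 201, Pemt at 126, Ahcy at 41.5, Shmt1 at 38.7 and Cbs at 37.9. The ranges over libraries of each neighbouring pair in that order overlapped. The Ahcy value is that of its own row, without the near-identical copies described below. Of the counts of Ahcy and these copies together, its row held 3.90% to 7.51% in 16 libraries and 28.3% to 37.2% in 4. Its place in the order is therefore that of the row alone. The lowest count of any of the 9 in any library was 551, for Ahcy, so counting error was small beside the differences between mice.

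**Figure D1:**
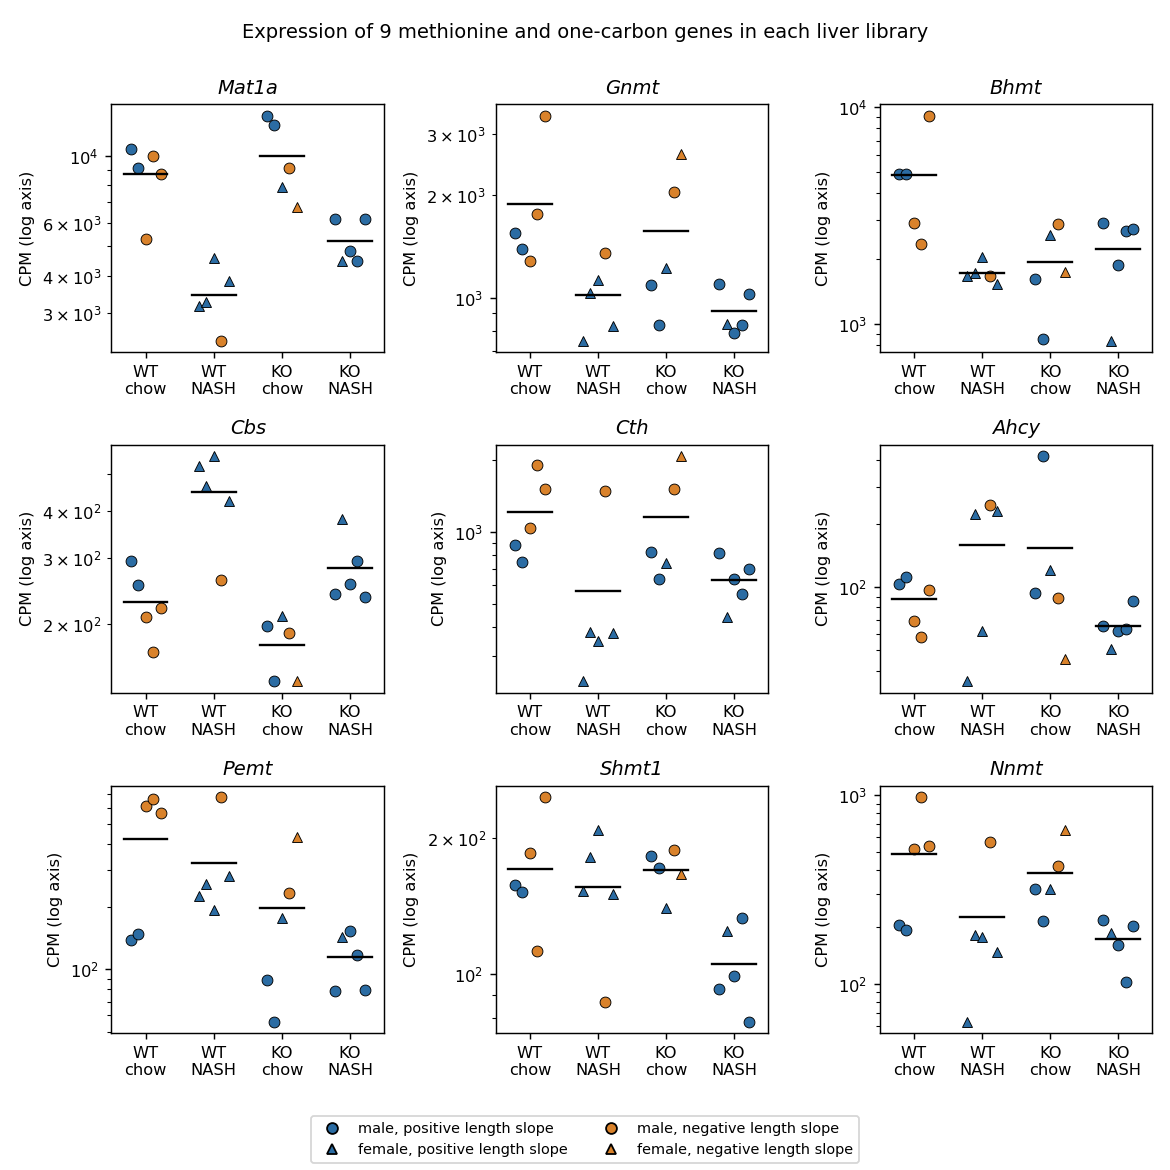
CPM (log axis) of the 9 genes in each of the 20 libraries, by genotype and diet. Circles are male and triangles female mice by their Y-linked counts, orange marks the 6 short-gene-rich libraries (negative length slope), and bars are group means. Mat1a was lower in all 5 WT NASH libraries (2429 to 4571 CPM) than in any WT chow library (5286 to 10541 CPM), whereas the highest Pemt and Nnmt values were in orange libraries.

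Over the 4 comparisons between groups, 5 differences passed the test among the 9 genes. A gene is said to have risen or fallen where edgeR's quasi-likelihood test across all 14440 tested genes gave a Benjamini-Hochberg adjusted p under 0.05. In WT mice on the NASH diet against chow, Mat1a and Bhmt fell and Cbs rose, 3 of 9, where 5.93% of all tested genes changed (2.69% higher, 3.24% lower). In KO mice the same diet comparison called 1 of 9, Mat1a, which fell, beside 3.29% of all genes (1.52% lower). Knockout against WT on chow called 1 of 9, Bhmt, which fell, beside 5.53% of all genes (2.49% lower). Knockout against WT on the NASH diet called 0 of 9 with edgeR, where 9.65% of all genes changed. Unadjusted p-values were under 0.05 for 5 of the 9 (25.6% of all genes), 2 were called by DESeq2 (15.2% of all genes) and 4 by limma voom (23.8%). The median log2 fold change of the 9 was -0.88 for diet in WT, -0.78 for diet in KO, -0.26 for genotype on chow and -0.38 for genotype on the NASH diet, beside medians of 0.01, -0.02, 0.00 and 0.00 over all tested genes. The 2 diet comparisons and the 2 genotype comparisons share groups pairwise and are not independent of each other. The p-values rest on 5 mice per group.

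**Figure D2:**
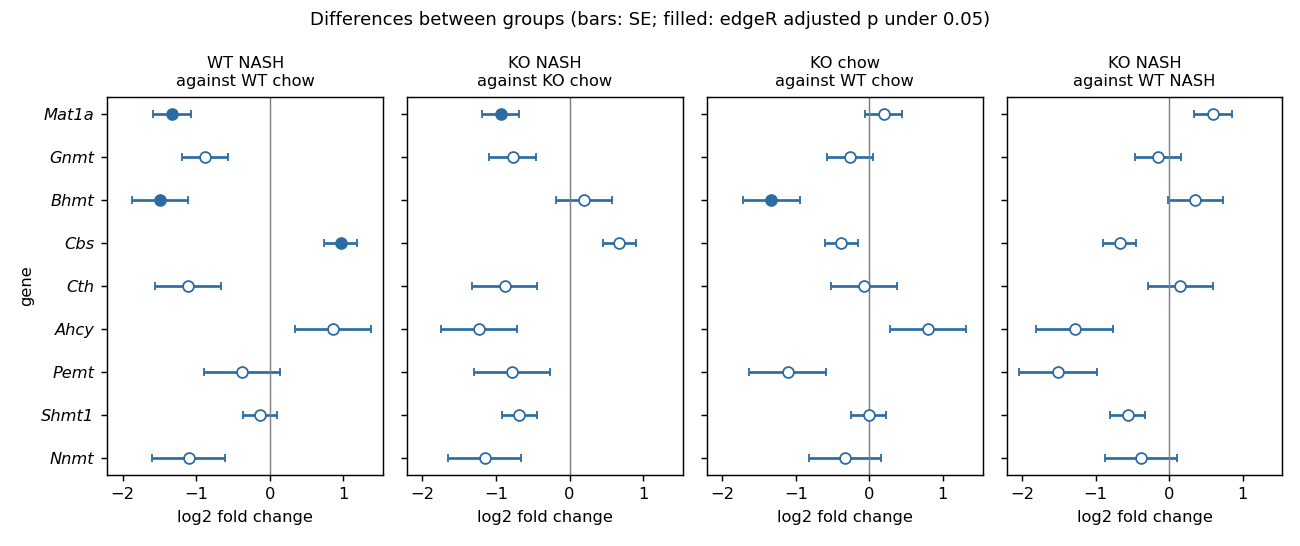
Log2 fold change (edgeR) of each of the 9 genes in the 4 comparisons, with bars of 1 SE. Filled points have an adjusted p under 0.05: Mat1a, Bhmt and Cbs for diet in WT, Mat1a for diet in KO, and Bhmt for genotype on chow.

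Mat1a lies on chr14:41105035-41124412 (GRCm38, plus strand) and encodes the liver form of methionine adenosyltransferase. It was measured at 10541, 9113, 5286, 10029 and 8680 CPM in WT chow replicates 1 to 5 and at 3173, 3273, 4571, 2429 and 3845 CPM in WT NASH. In KO mice it was 13603, 12649, 7890, 9149 and 6740 CPM on chow and 6164, 4459, 4811, 4483 and 6185 CPM on the NASH diet. In both genotypes every NASH library lay below every chow library of the same genotype. The share of all tested genes without overlap between groups was not counted, for this or any gene below. The fall was by 1.34 on the log2 scale in WT (SE 0.26; edgeR adjusted p = 0.00459) and by 0.94 in KO (SE 0.26; edgeR adjusted p = 0.0484). The difference between these falls, 0.40 with SE 0.36, did not pass the edgeR test (adjusted p = 0.855). Knockout and WT did not separate for Mat1a on either diet: the log2 difference on chow was 0.20 (SE 0.25) and that on the NASH diet 0.59 (SE 0.26; edgeR adjusted p = 0.146).

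The fall of Mat1a was present within each sex and each kind of library where they could be compared. The 1 male WT NASH library had the lowest Mat1a of all 20 libraries, 2429 CPM, against 5 male WT chow libraries at 5286 CPM or more. Among KO males the 3 chow libraries held 9149 to 13603 CPM and the 4 NASH libraries 4483 to 6185 CPM. The 1 female KO NASH library held 4459 CPM, below the 2 female KO chow libraries at 6740 and 7890 CPM. With sex as a term the WT difference was -1.13 (edgeR adjusted p = 0.136), and with sex and the length slope together -1.33 (edgeR adjusted p = 0.0113). Without the 6 short-gene-rich libraries it was -1.39 in WT (edgeR adjusted p = 0.00604) and -1.13 in KO (edgeR adjusted p = 0.00749). In that fit the WT chow libraries are all male and the WT NASH libraries all female. When each library was left out in turn, the WT call held in 20 of 20 fits. The KO call held in 7 of 20, when WT chow replicate 1, 3, 4 or 5, WT NASH replicate 4, or KO chow replicate 3 or 5 was left out, and the adjusted p reached at most 0.115.

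Of the methyl-spending enzymes, none passed the edgeR test in any comparison, and all 3 differed widely between libraries of 1 group. Gnmt (chr17:46725664-46729168, minus strand), the glycine methyltransferase, was 1544, 1385, 1279, 1762 and 3403 CPM in WT chow and 749, 1035, 1129, 1347 and 826 CPM in WT NASH. KO libraries held 1092, 834, 1218, 2042 and 2636 CPM on chow and 1094, 836, 788, 830 and 1025 CPM on the NASH diet. The groups overlapped, and the log2 differences between diets were -0.88 (SE 0.32; edgeR adjusted p = 0.104) in WT and -0.77 (SE 0.32; edgeR adjusted p = 0.16) in KO. In WT, DESeq2 (adjusted p = 0.0443) and limma voom (adjusted p = 0.0121) called the Gnmt difference. With a term for sex the differences were -0.90 and -0.77 (edgeR adjusted p = 0.319 and 0.18), and without the 6 short-gene-rich libraries they were -0.64 and -0.20.

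Pemt (chr11:59970614-60046489, minus strand), which methylates phosphatidylethanolamine, did not overlap between the genotypes on the NASH diet. The share of all tested genes without such overlap was not counted. Pemt was 226, 258, 192, 675 and 281 CPM in WT NASH. In KO NASH it was 78.9, 143, 153, 117 and 79.9 CPM, and each KO value was under the lowest WT value. On chow it was 139, 148, 611, 663 and 566 CPM in WT and 88.4, 55.8, 177, 232 and 431 CPM in KO, and these ranges overlapped. The log2 difference on the NASH diet was -1.51 (SE 0.53; edgeR adjusted p = 0.0741), and DESeq2 called it with an adjusted p of 0.0265. The difference was smaller, -1.06, without the 6 short-gene-rich libraries, where it passed (edgeR adjusted p = 0.0196). With sex and the length slope as terms it was -0.58 (edgeR adjusted p = 0.108). On chow the difference was -1.11 (SE 0.52; edgeR adjusted p = 0.247), and with both terms it was -0.81 and passed (edgeR adjusted p = 0.0167).

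Nnmt (chr9:48591877-48605153, minus strand), the nicotinamide methyltransferase, was 206, 193, 516, 977 and 538 CPM in WT chow and 62.7, 181, 176, 564 and 147 CPM in WT NASH. Among KO mice Nnmt reached 319, 214, 319, 419 and 654 CPM on chow and 216, 186, 161, 102 and 201 CPM on the NASH diet. The diet groups overlapped in both genotypes. Its log2 diet differences were -1.10 (SE 0.49; edgeR adjusted p = 0.194) in WT and -1.15 (SE 0.50; edgeR adjusted p = 0.179) in KO. Without WT NASH replicate 4, a male and short-gene-rich library that held 564 CPM, the WT difference was -1.80 and passed the edgeR test. That fit compares male WT chow with female WT NASH libraries. A term for sex gave -0.90 in WT and -1.27 in KO (edgeR adjusted p = 0.501 and 0.151). Leaving out all 6 short-gene-rich libraries gave -0.48 and -0.72 (edgeR adjusted p = 0.455 and 0.146).

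Pemt, Nnmt, Cth and Gnmt moved with the length slope of the library. Their Pearson r with the slope over 20 libraries was -0.88, -0.80, -0.74 and -0.77, given as a description because the libraries share diet and genotype. Of all genes with a value, 5.10%, 10.8%, 14.3% and 12.8% had a lower r than these 4. By exon length these 4 were the shortest of the 9, from 1206 bases (Gnmt) to 2791 (Cth), and the slope is itself defined by gene length. Ahcy, at 2805 bases, had an r of 0.04. Cbs, the longest at 7485 bases, had an r of 0.37. Pemt spanned 232 to 675 CPM in the 6 short-gene-rich libraries and 55.8 to 281 CPM in the other 14, and the ratio of the means was 3.47. For Nnmt the ranges were 419 to 977 CPM and 62.7 to 319 CPM, and for Cth 1034 to 2079 CPM and 235 to 885 CPM. In Nnmt and Cth the ranges did not overlap. Mat1a had an r of 0.03 and a ratio of means of 1.04. The part of the length slope in the group differences of these genes was not tested beyond the fits with and without it.

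**Figure D3:**
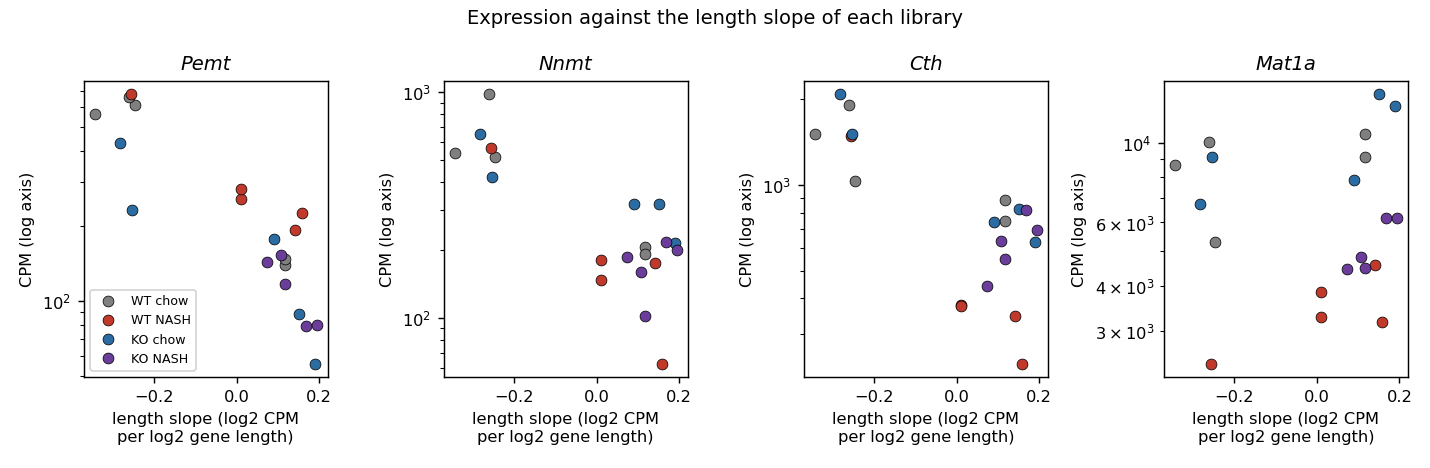
CPM (log axis) of Pemt, Nnmt, Cth and Mat1a against the length slope of each of the 20 libraries, coloured by group. The 6 libraries left of 0 hold the highest Nnmt and Cth values in every group they belong to, while Mat1a shows no such order (r of 0.03).

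The gene Ahcy (chr2:155059310-155074497, minus strand) has near-identical copies, and most of the counts summed over Ahcy and these copies stood in the rows of the copies. From which of the genes those reads came was not tested. Over its coding sequence of 1299 bases, Gm4737 (chr16:46152985-46155077) differs at 4 positions, an identity of 99.692%, and the pseudogenes Gm9826 (chr1:7177739-7179037) and Gm5638 (chrX:68629428-68630685) have identities of 99.153% and, over the 1128 bases of it that align, 94.504%. The stretches that hold the 4 differences are shown, since only reads that cover one of these bases can tell the 2 genes apart within the coding sequence. They are read 5′ to 3′ on the coding strand from GENCODE M21 transcripts, with the differing bases in capitals.
Ahcy bases 449 to 538: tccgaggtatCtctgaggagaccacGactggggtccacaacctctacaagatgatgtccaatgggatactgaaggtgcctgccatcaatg
Gm4737 bases 449 to 538: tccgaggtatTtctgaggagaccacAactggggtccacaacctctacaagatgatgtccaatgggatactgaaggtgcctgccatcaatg
Ahcy bases 1040 to 1129: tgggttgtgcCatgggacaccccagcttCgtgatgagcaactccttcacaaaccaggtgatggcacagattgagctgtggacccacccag
Gm4737 bases 1040 to 1129: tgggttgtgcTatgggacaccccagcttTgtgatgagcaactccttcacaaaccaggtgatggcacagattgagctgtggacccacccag
Counted from the A of the start codon, with the Ahcy base first, the differences are C459T, G474A, C1050T and C1068T. The first 458 bases are identical, as are 575 bases between the second and the third difference.

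Ahcy itself was at 104, 112, 69.2, 57.7 and 96.9 CPM in WT chow and 35.6, 223, 61.9, 247 and 229 CPM in WT NASH. The KO libraries had 93.2, 419, 120, 88.7 and 45.6 CPM on chow and 65.2, 50.6, 61.6, 63.4 and 86.2 CPM on the NASH diet. WT NASH replicates 2, 4 and 5 and KO chow replicate 2 stood above all other libraries. In these 4 libraries Ahcy held 28.3% to 37.2% of the counts of Ahcy and its 3 copies together, against 3.90% to 7.51% in the other 16. The 4 were not of 1 sex or 1 library kind.

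Summed over Ahcy and its copies, the counts averaged on chow 1725 ± 479 CPM (SD, n = 5) for WT and 1777 ± 443 for KO, and on the NASH diet 759 ± 159 and 957 ± 213 CPM. All 5 WT NASH libraries (664 to 1040 CPM) lay below all 5 WT chow libraries (1147 to 2147 CPM). The summed counts fell by 1.18 on the log2 scale with diet in WT (SE 0.25; edgeR adjusted p = 0.00828). In KO mice the difference was -0.89 (SE 0.25; edgeR adjusted p = 0.0508). The male WT NASH library was the lowest of its group in the sum, at 664 CPM, and the 2 WT chow libraries that were not short-gene-rich held 1979 and 2147 CPM. The sum was not fitted with a term for sex or without the short-gene-rich libraries. The Ahcy counts alone gave 0.86 in WT (SE 0.52; edgeR adjusted p = 0.334) and -1.23 in KO (SE 0.52; edgeR adjusted p = 0.173), so that in WT the single gene and the sum had opposite signs. Between genotypes the sum differed by 0.04 on chow and by 0.33 on the NASH diet (edgeR adjusted p = 0.422), where Ahcy alone gave -1.28. The sum was formed after the Ahcy values had been seen. The sources used here do not say how the counting shared reads between copies.

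**Figure D4:**
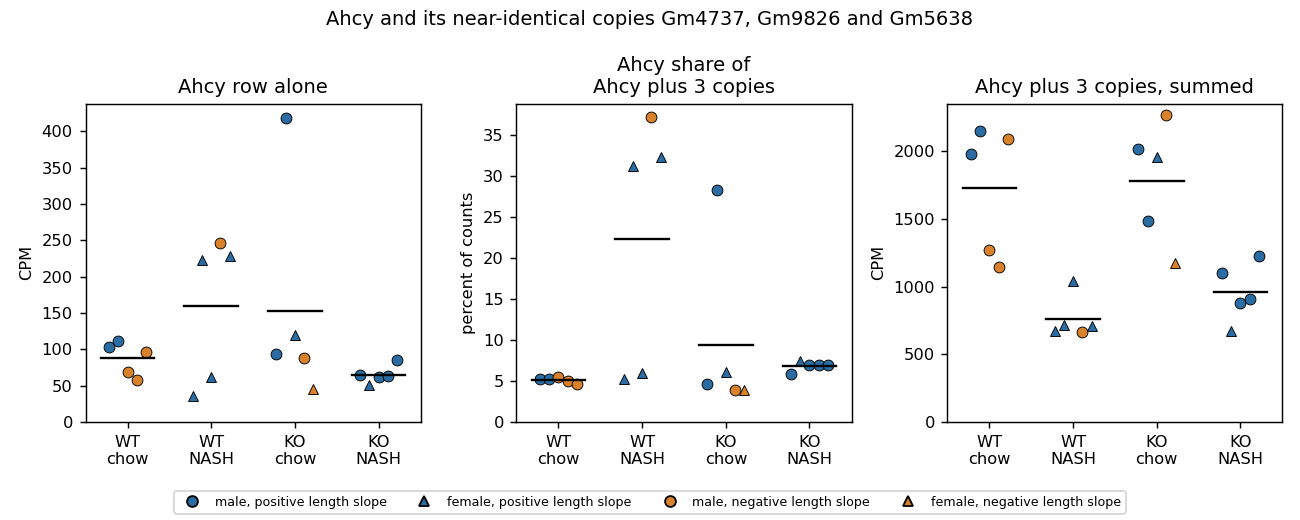
Ahcy CPM, the share of counts that Ahcy held among itself and its copies Gm4737, Gm9826 and Gm5638 (percent), and their summed CPM, in each library, with bars at the group means. The share was 28.3% or more in 4 libraries and at most 7.51% in the other 16, and the sum was lower in all WT NASH libraries than in any WT chow library.

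Of the enzymes that handle homocysteine, the betaine enzyme fell with diet in WT while the first enzyme of cysteine synthesis rose. Bhmt (chr13:93616675-93637961, minus strand), betaine-homocysteine methyltransferase, was 4937, 4891, 2912, 2346 and 9139 CPM in WT chow and 1661, 1720, 2039, 1658 and 1530 CPM in WT NASH. In KO mice it was 1610, 854, 2568, 2874 and 1725 CPM on chow and 2924, 834, 1862, 2683 and 2739 CPM on the NASH diet. Every WT NASH library lay below every WT chow library. Both KO groups overlapped WT chow: KO chow in 2 of its 5 libraries, replicates 3 and 4, and KO NASH in replicates 1, 4 and 5. Bhmt fell by 1.49 with diet in WT (SE 0.39; edgeR adjusted p = 0.0263) and by 1.33 with knockout on chow (SE 0.38; edgeR adjusted p = 0.0456). In KO mice the diet difference was 0.20 (SE 0.38; edgeR adjusted p = 0.773). The difference between the 2 diet effects, 1.69 (SE 0.54), was the largest in proportion to its error among the 9 genes, with an unadjusted p of 0.00502 and an edgeR adjusted p of 0.261.

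The calls for Bhmt depended on the libraries and terms used. With sex as a term the differences were -1.31 for diet in WT (edgeR adjusted p = 0.261) and -1.23 for knockout on chow (edgeR adjusted p = 0.114). Leaving out the 6 short-gene-rich libraries gave -1.49 (edgeR adjusted p = 0.0526) and -1.54 (edgeR adjusted p = 0.058). The 1 male WT NASH library, at 1658 CPM, lay below all 5 male WT chow libraries. Left out in turn, WT chow replicate 5 or WT NASH replicate 1, 2 or 5 ended the diet call in WT, with an edgeR adjusted p of at most 0.0967. The knockout call on chow held in only 5 of 20 such fits, without WT chow replicate 4, WT NASH replicate 4, KO chow replicate 3 or 4, or KO NASH replicate 2. Bhmt held 82.8% to 89.9% of the counts of itself and its copies Bhmt-ps1 and Gm5096, and the sums fell by 1.50 with diet in WT (edgeR adjusted p = 0.0283), while the genotype difference on chow was -1.31 (edgeR adjusted p = 0.0532). Bhmt also shares 187 exon bases with the antisense gene Gm15622, whose reads cannot be told apart without strand.

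Cbs (chr17:31608894-31637238, minus strand), cystathionine beta-synthase, was 294, 255, 209, 169 and 221 CPM in WT chow and 527, 465, 558, 262 and 425 CPM in WT NASH. Cbs in KO mice was 197, 141, 210, 190 and 142 CPM on chow and 240, 380, 255, 295 and 236 CPM on the NASH diet. In WT the groups overlapped through 1 library, the male WT NASH replicate 4, and in KO all NASH libraries lay above all chow libraries. Cbs rose by 0.96 with diet in WT (SE 0.23; edgeR adjusted p = 0.0154), and the difference in KO was 0.68 (SE 0.22; edgeR adjusted p = 0.0953; DESeq2 adjusted p = 0.0328). On the NASH diet, knockout differed from WT by -0.67 (SE 0.22; edgeR adjusted p = 0.0618).

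Sex moved with Cbs on the NASH diet, and less evenly on chow. The 4 highest WT NASH libraries were all female, and the highest KO NASH library, replicate 2 at 380 CPM, was the only female there. The 2 female KO chow libraries held 210 and 142 CPM, the highest value of that group and one near its lowest. The male WT NASH library, at 262 CPM, lay within the range of the 5 male WT chow libraries, 169 to 294 CPM. With sex as a term the WT diet difference was 0.60 (edgeR adjusted p = 0.327). Without the 6 short-gene-rich libraries, one of which is that male, it was 0.86 (edgeR adjusted p = 0.0475). The WT chow libraries left in that fit are all male and the WT NASH libraries all female. The genotype difference on the NASH diet with a term for sex was -0.41 (edgeR adjusted p = 0.34), and without those 6 libraries it was -0.81 (edgeR adjusted p = 0.00589). In KO mice the 3 chow males held 141 to 197 CPM and the 4 NASH males 236 to 295 CPM, with no overlap. The KO diet difference passed with sex and the length slope as terms, at 0.60 (edgeR adjusted p = 0.0398). It was 0.73 with sex alone (edgeR adjusted p = 0.0538) and 0.62 without the 6 libraries (edgeR adjusted p = 0.0625).

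Cth (chr3:157894248-157925077, minus strand), which splits cystathionine to give cysteine, was 885, 745, 1034, 1904 and 1514 CPM in WT chow and 235, 378, 347, 1486 and 375 CPM in WT NASH. The KO values were 823, 632, 739, 1514 and 2079 CPM on chow and 815, 440, 637, 550 and 696 CPM on the NASH diet. In WT, 4 of 5 NASH libraries lay below all chow libraries, and the fifth, replicate 4, was high. The diet differences were -1.11 (SE 0.45; edgeR adjusted p = 0.149) in WT and -0.88 (SE 0.45; edgeR adjusted p = 0.246) in KO. Without WT NASH replicate 4 the WT difference was -1.88 and passed, and without all 6 short-gene-rich libraries it was -1.28 (edgeR adjusted p = 0.00762). In both fits WT chow is all male and WT NASH all female. Without the 6 libraries Cth was also higher in KO NASH than in WT NASH, by 0.91 (edgeR adjusted p = 0.00547). The fit of all libraries gave 0.15 (SE 0.44). KO NASH is male but for replicate 2, which held 440 CPM, the lowest of its group. The female WT NASH libraries held 235 to 378 CPM. Over all other fits of Cth the WT diet difference ran from -1.88 to 0.27. The genotype difference on the NASH diet ran from -1.11 to 0.91.

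Shmt1 (chr11:60788104-60811718, minus strand), the cytosolic serine hydroxymethyltransferase, varied least between diets in WT. It was 157, 152, 185, 113 and 246 CPM in WT chow and 152, 181, 208, 86.5 and 150 CPM in WT NASH, and these ranges overlapped. In KO mice it was 182, 171, 140, 188 and 166 CPM on chow and 92.6, 124, 99.0, 133 and 78.4 CPM on the NASH diet, with all NASH libraries below all chow libraries. The KO diet difference was -0.68 (SE 0.24; edgeR adjusted p = 0.105; DESeq2 adjusted p = 0.0385), beside -0.13 (SE 0.23) in WT. The difference between these, -0.55 with SE 0.33, did not pass (edgeR adjusted p = 0.724). On the NASH diet knockout differed from WT by -0.56 (SE 0.24; edgeR adjusted p = 0.134). In a fit that left out the 6 short-gene-rich libraries, the KO diet difference was -0.64 (edgeR adjusted p = 0.0443) and the genotype difference on the NASH diet -0.71 (edgeR adjusted p = 0.01), and both passed. With a term for sex neither passed, at -0.65 (edgeR adjusted p = 0.109) and -0.40 (edgeR adjusted p = 0.44). Shmt1 shares 184 exon bases with Smcr8 on the other strand.

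Whether the effect of diet depended on genotype was asked with the interaction term. With edgeR 0 of 9 genes passed. Unadjusted p-values were under 0.05 for 2 of 9, Bhmt and Ahcy (-2.08), beside 8.25% of all genes. Among the other tools, DESeq2 called 0, and 1 was called by limma voom, Cth, at 1.32 (adjusted p = 0.0409). Over all genes 0.139% passed with edgeR, 1.31% with DESeq2 and 13.5% with limma voom. For Ahcy summed with its copies the interaction was 0.29 (edgeR adjusted p = 0.912).

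**Figure D5:**
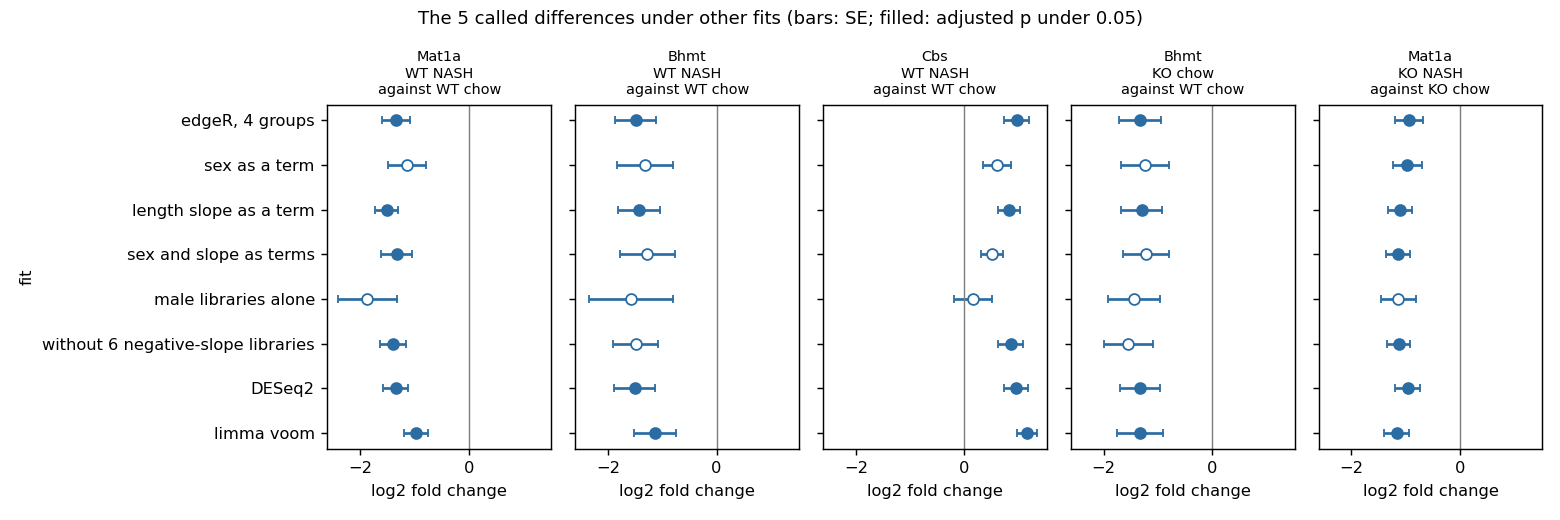
The 5 differences that passed with edgeR, re-estimated with sex and the length slope as terms, in male libraries alone, without the 6 short-gene-rich libraries (negative length slope) and with DESeq2 and limma voom; bars are 1 SE and filled points have an adjusted p under 0.05. All estimates kept their sign, and Cbs was nearest to 0 among males alone (0.17), where the WT NASH group is 1 library, replicate 4.

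The wider pathway was described with a list of 108 other genes of methyl, folate, choline, cysteine, polyamine and nicotinamide metabolism and their regulators, of which 105 were tested. With edgeR, 10 of 105 (9.52%) changed with diet in WT, 6 higher and 4 lower. With diet in KO 6 changed (2 higher, 4 lower), with knockout on chow 14 (9 higher, 5 lower) and with knockout on the NASH diet 16 (9 higher, 7 lower), beside the shares over all genes given above. With sex as a term these counts were 3, 6, 10 and 7, beside 1.11%, 3.98%, 5.84% and 4.33% of all genes. The median log2 fold changes of the list were 0.03, 0.01, -0.10 and -0.10 in the same order.

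With diet in WT, 1 rose and 1 fell of the 14 choline and betaine genes, the 17 folate genes and the 12 regulators alike. In KO mice 1 choline gene rose, and 1 folate, 1 serine and glycine and 1 polyamine gene fell. Of the 12 nicotinamide and NAD genes 1 rose and 1 fell in KO. Over all genes 5.93% changed in WT and 3.29% in KO. Chka, choline kinase, rose by 1.68 in WT (edgeR adjusted p = 0.00582) and by 1.62 in KO (edgeR adjusted p = 0.017), from 27.0 ± 7.0 to 86.6 ± 29.1 CPM (SD, n = 5) in WT. Ftcd, which passes the carbon of histidine breakdown to folate, fell by 0.87 in WT (edgeR adjusted p = 0.0227) and by 1.14 in KO (edgeR adjusted p = 0.0101). Nmrk1, a nicotinamide riboside kinase, fell by 1.71 and 1.20. In WT, Dmgdh, which oxidises the dimethylglycine that Bhmt releases, fell by 0.86, from 676 ± 156 to 373 ± 55.4 CPM. Gamt, which uses S-adenosylmethionine to make creatine, rose by 1.41 in WT, the transcription factor Foxo1 rose by 1.37, and the nuclear receptor Esrra fell by 0.95. In KO, Odc1, the first enzyme of polyamine synthesis, fell by 0.91, Agxt, a glyoxylate aminotransferase, fell by 0.98, and the aldehyde oxidase Aox3 rose by 1.71. With a term for sex, Chka, Nmrk1 and Esrra of these still passed in WT and all but Nmrk1 in KO. Without the 6 short-gene-rich libraries Chka, Nmrk1, Esrra and Foxo1 passed in WT, where sex and diet then differ together, and all but Agxt in KO.

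With knockout on chow, 1 of the 17 folate genes and 2 of the 8 serine and glycine genes rose and none of these fell. Of the 12 polyamine and salvage genes 2 rose and 1 fell, and of the 12 nicotinamide and NAD genes 2 rose and 1 fell. Over all genes 5.53% changed in this comparison. On the NASH diet 3 folate genes rose and 1 fell, beside 9.65% of all genes changed, and the median log2 fold change of the 17 was -0.31. The other, Ggh, gamma-glutamyl hydrolase, fell by 1.66 (edgeR adjusted p = 0.0408) and is named after its value was seen. Mthfd1l, the mitochondrial formyltetrahydrofolate synthetase, rose by 2.77 on chow (edgeR adjusted p = 0.00245) and by 2.13 on the NASH diet (edgeR adjusted p = 0.00987), from 0.762 to 5.31 CPM on chow and from 0.654 to 3.06 CPM on the NASH diet. Smox, spermine oxidase, rose by 1.45 and 1.65. On chow, Psat1 of serine synthesis rose by 3.40, from 0.317 to 3.40 CPM, Agxt rose by 1.24, Mri1 of methionine salvage by 1.01 and the NAD enzyme Nmnat3 by 1.13. Nr0b2, the repressor SHP, fell by 2.95 on chow and Aox3 fell by 1.63. On the NASH diet, Slc25a32, a mitochondrial folate carrier, rose by 1.91, the folate carrier Slc19a1 by 0.85 and Esrra by 1.34. Mat2a, the methionine adenosyltransferase of other tissues and of growing liver, rose by 1.44 on the NASH diet (edgeR adjusted p = 0.0101), from 3.03 ± 1.13 to 8.10 ± 3.20 CPM. Cdo1, cysteine dioxygenase, fell by 1.48, from 2696 ± 1352 to 968 ± 169 CPM, and Paox, a polyamine oxidase, fell by 1.22. With a term for sex all of these still passed but Aox3 and Nmnat3 on chow and Mthfd1l, Slc19a1 and Ggh on the NASH diet. Without the 6 short-gene-rich libraries Mthfd1l, Smox and Aox3 passed on chow, and all passed on the NASH diet. Several of these genes are of low level, with means under 10 CPM.

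The genes whose log2 CPM followed each enzyme most closely over the 20 libraries were sought among 9529 genes, with Pearson r as the measure of likeness. For Bhmt they were its copies Gm5096 (0.96) and Bhmt-ps1 (0.87), then Dmgdh (0.78). For Pemt they were Lipc (0.98), Timd2 (0.97) and BC025446 (0.97), and for Nnmt Guf1 (0.95), Fam120aos (0.94) and Slc35b3 (0.93). Cbs was most like Celsr1 (0.95), Trf (0.94) and N4bp2l1 (0.93), Cth like Bet1l, Tefm and Hsd17b10 (0.93, 0.93 and 0.92), and Gnmt like Mut, Sat2 and Snw1 (0.91, 0.90 and 0.90). Mat1a was most like Mppe1, Cyp4a32 and Rnf4 (all 0.87), Shmt1 like Ces1d, Mtfp1 and Sco1 (0.85, 0.84 and 0.81), and Ahcy had the weakest matches, Api5, Lin54 and Rab10 (0.69, 0.65 and 0.61). Among the 9 themselves, Gnmt and Cth had an r of 0.81 and Cbs and Cth an r of -0.81. These values share diet, sex and length slope across libraries and describe likeness only.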

How the data were processed

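Per the labels, total RNA of liver was extracted with Trizol and made into Illumina libraries. The authors deposited whole-number counts per gene symbol for the 20 libraries. The submitters' processing notes name HISAT2 2.0.4 and the build GRCm38. For the counting program, its annotation and its use of strand, the answer is not given in the sources used here. Library columns were matched to the labels by group and number, reading the file's abbreviation HFD as the NASH diet.

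From the deposited counts, genes were kept by edgeR's filterByExpr with a minimum count of 10 (14440 genes, 99.9% of counts), scaled by TMM and fitted in 1 quasi-likelihood model of 4 groups (edgeR 4.0.16, R 4.3.3), with Benjamini-Hochberg adjustment over all 14440 genes at 0.05. DESeq2 1.42.0 and limma 3.58.1 were alternatives, with other scalings, filters, terms and library subsets. Limma voom stands throughout for voom with a quality weight for each library. The scripts were checked on simulated counts. Sex was read from Y-linked counts (100 or more for a male). The length slope used 9518 genes of at least 2 mean log2 CPM and GENCODE M21 exon lengths, and 93.5% of tested genes had a length. Copies were found by alignment of coding sequences (90% identity or more over at least 300 bases). The named genes were the 9 members, Pck1, up to 8 called genes per comparison of the pathway list with a mean of at least 1 CPM, by smallest adjusted p, and the 3 most similar genes to each member. A gene that this rule names is not reported here. Members and lists were chosen with earlier results of these data known.

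The closest pair of libraries within a group (KO NASH replicates 1 and 5) differed by a chi-square of 7.81 per degree of freedom, above sampling noise, so no library was merged. The common biological coefficient of variation was 39.0%.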

Additional observations from a re-analysis of the deposited data

Results flagged for a closer look

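In 5 of 36 combinations of gene and group, 1 library stood apart from the other 4 by Dixon's criterion, each time as the highest. The criterion was applied to CPM and not to their logarithms. Its rate of about 1 in 20 by chance holds for independent, normally distributed values. The 36 combinations share libraries, so the 5 cannot be set against that rate. Of these, 3 are the same library, WT NASH replicate 4, the only male of its group and its only short-gene-rich library. It held 1486 CPM of Cth, 675 CPM of Pemt and 564 CPM of Nnmt, in each case the highest of the group. Gnmt was at 3403 CPM in WT chow replicate 5, where the other 4 libraries of the group held 1279 to 1762 CPM. Ahcy was at 419 CPM in KO chow replicate 2, where the other 4 held 45.6 to 120 CPM; the share of Ahcy among its copies was 28.3% in that library. The causes were not tested.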

How the results depend on the processing

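The 5 differences that passed kept their sign in all 176 re-estimates and passed in 120 of them. The 40 that did not pass took the other sign in 76 of 1408 re-estimates and passed in 40. For diet in WT, 3 of the 9 genes were called; leaving out 1 library at a time gave 2 to 5, DESeq2 4, the length slope as a term 4, limma voom 6, sex as a term 0, sex with the length slope 1, and male libraries alone 0. For knockout on chow, 1 was called; leaving out 1 library gave 0 to 1, no low-count filter 0, limma voom 3, only the 2 groups compared 0, sex as a term 0, sex with the length slope 2, male libraries alone 0, KO NASH replicates 1 and 5 summed 0, and sums over near-identical copies 0. For knockout on the NASH diet, 0 were called with edgeR; leaving out 1 library gave 0 to 1, DESeq2 2, limma voom 4, only the 2 groups 1, the length slope as a term 3, sex with the length slope 1, and male libraries alone 1. For diet in KO, 1 was called; leaving out 1 library gave 0 to 2, no filter 0, DESeq2 3, limma voom 3, only the 2 groups 0, sex with the length slope 2, male libraries alone 0, female libraries alone 0, and replicates 1 and 5 summed 0. For the interaction, 0 were called with edgeR, 0 in each fit that left out 1 library, and 1 with limma voom. Without the 6 short-gene-rich libraries, chosen after seeing the data, 3 were called for diet in WT, 0 for knockout on chow, 4 for knockout on the NASH diet and 2 for diet in KO. In that fit WT chow is all male and WT NASH all female. Over all genes, in the order diet in WT, knockout on chow, knockout on the NASH diet and diet in KO, DESeq2 called 10.4%, 9.62%, 15.2% and 9.02%, limma voom 40.6%, 40.4%, 23.8% and 12.7%, sex as a term 1.11%, 5.84%, 4.33% and 3.98%, the length slope 12.3%, 11.5%, 16.5% and 6.36%, both terms 4.99%, 13.8%, 10.4% and 9.36%, and fits without the 6 libraries 4.88%, 5.33%, 20.3% and 7.69%. In the same order, no filter called 2.39%, 2.59%, 4.54% and 0.96% of all genes. Only the 2 groups called 2.74%, 2.2%, 15.2% and 2.33%. Replicates 1 and 5 summed called 5.37%, 4.85%, 5.23% and 1.23%, and sums over copies 5.92%, 5.52%, 9.66% and 3.29%. Male libraries alone have 1 WT NASH library, assumed to vary like the other groups, and female libraries alone have 1 KO NASH library. No weight is put on the numbers of genes called in these single-sex fits. The causes were not tested; fits of fewer libraries have less power by construction.

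The labels do not say that replicate numbers pair mice. Deviations of same-numbered libraries from their group means correlated above 0.1 in 13 of 30 pairs (-0.41 to 0.52). Of 60 comparisons, 17 were best with the own number. The length slope differs within groups and enters these deviations, so they cannot settle whether the numbers pair mice. With the replicate number as a block, 4, 1, 0, 0 and 0 of the 9 genes were called for diet in WT, knockout on chow, knockout on the NASH diet, diet in KO and the interaction. In the pathway list, sex as a term moved the edgeR counts of 10 and 16 for diet in WT and knockout on the NASH diet to 3 and 7. DESeq2 gave 18 and 18 of 105, and limma voom 48 and 33, beside the shares over all genes given above. Depth did not limit the 9 genes, whose lowest count was 551.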
